A study of Mus musculus with 360 samples.

Results

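The cells described here are 54 reprogrammed supporting cells, set against 80 wild-type cells of the same cochlear sort. Together they are 134 of the 360 single cells of the series, of which 341 carry a cluster in the authors' deposited annotation. The 54 cells are those of the GAP genotype that the authors placed in cluster 1 and named Reprogrammed supporting 1. The 80 cells are those of the control genotype in cluster 0, named WT Cells 1, and serve as the reference. Cluster 1 held 0 control cells, and cluster 0 held 4 GAP cells besides the 80. The comparison asks which genes of the resident cells were kept or lost where hair cell genes were gained.

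Both genotypes had Fbxo2CreERT2, a Cre recombinase that tamoxifen activates in cells using the Fbxo2 gene, together with Rosa26-tdTomato, a fluorescent reporter. The GAP genotype also had Rosa26-GAP, which expresses the hair cell transcription factors Atoh1, Gfi1 and Pou4f3. In both genotypes tamoxifen was given at 3 weeks and cochleae were dissociated with papain at 5 weeks. Single cells were sorted on tdTomato and EpCAM into plates, and SMART-MATQ libraries gave exonic UMI counts (unique molecular identifiers, which count molecules rather than reads). Each cell title holds 1 of 4 letters, which are A or B in control cells and C or D in GAP cells. No label names an animal, a litter or a pool, each letter holds 1 genotype, and so each genotype counts as 1 sample. Genotype and letter cannot be told apart in any value below that sets GAP cells against control cells, and no p-value is given. Intervals are exact 95% intervals that cover counting error only.

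Hair cells convert sound into electrical signals through a bundle of actin-filled stereocilia. They sit among supporting cells and other nonsensory epithelial cells, which couple to each other through gap junctions, handle potassium and anchor the tectorial membrane. In development Atoh1 starts the hair cell programme, Pou4f3 and Gfi1 carry it on, and nascent hair cells display Notch ligands that hold their neighbours in the supporting fate through Notch receptors and the Hes and Hey repressors. The mature mammalian cochlea does not replace lost hair cells, which is why these 3 factors are tested in adult nonsensory cells.

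The 54 cells comprised 28 of letter C and 26 of letter D, and the 80 reference cells 28 of letter A and 52 of letter B. Levels are CPM, the UMIs of a gene summed over a set of cells and scaled to the same fixed total in every set. The totals were 1774728 UMIs for the reprogrammed supporting cells and 1697070 for the reference. The reprogrammed cells were the deeper, with a median of 34992 UMIs per cell (12789 to 42818) and 5270 genes, against 19822 (8192 to 41653) and 3564 in the reference. A level of 3 counts corresponds to 1.69 and 1.77 CPM in the sets. For a gene with no UMI in a set, the bound on its fold takes 3 counts over that set. The clusters were made from these same counts, so every difference between clusters is a description. Letters A and B of the reference differed at least 2-fold for 23.9% of genes at 10 CPM or more and for 10.6% at 50 CPM or more. Letters C and D of the reprogrammed cells differed likewise for 19.3% and 7.83%, and each of the 4 cross pairings (C or D with A or B) for 36.2% to 39.6% and 30.1% to 31.6%.

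The 3 driver genes were present in nearly all reprogrammed cells and nearly absent from the reference. Atoh1 stood at 1071 CPM for letter C and 1127 CPM for letter D, with a UMI in 53 of 54 cells, and had no UMI in the 80 reference cells. Its summed level was 1097 CPM (1049 to 1147), at least 621-fold higher than in the reference. Pou4f3 stood at 749 CPM against 0, at least 424-fold higher, and had a UMI in 54 of 54 cells. Gfi1 stood at 285 CPM against 1 UMI in the reference, a ratio of 483 with a counting interval of 86.3 to 19111. Exonic counts do not say whether these molecules came from the transgene or from the endogenous genes. Summed over the 3 factors, single reprogrammed cells ranged from 78.2 to 4789 CPM with a median of 2036 CPM. Fbxo2, the gene that drives the recombinase, was lower in the reprogrammed cells, at 335 and 426 CPM for letters C and D against 853 and 727 CPM for A and B (2.04-fold lower, 1.85 to 2.24). Epcam, the sort marker, was within 2-fold, at 140 against 187 CPM (ratio 0.746, 0.629 to 0.883).

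Calls rest on size alone. Called here means a fold of at least 2 with 1 CPM added to both levels. Of 9980 genes at 10 CPM or more in either set, 1841 were called higher in the reprogrammed supporting cells (18.4%) and 1185 lower (11.9%), around a median log2 ratio of 0.11. Most measured general genes of cochlear supporting cells were within 2-fold between the sets. Sox9, a supporting cell transcription factor, stood at 930 and 1121 CPM for letters C and D against 1102 and 938 CPM for A and B, a ratio of 1.03 (0.961 to 1.10). S100a1, a calcium-binding protein of supporting cells, was at 9236 against 4856 CPM, and the connexin gene Gjb2 at 788 against 1216 CPM. Of 14 measured general supporting cell genes, 10 were within 2-fold, 2 were called higher and 2 lower. Lfng was among the higher and Sox10 among the lower, with their levels given further below. The median log2 ratio was 0.09. That median's sign is not fixed, since it ran from -0.13 to 0.07 over the letter pairings. The classical markers Sox2 and Prox1 were near the detection limit in both sets, with 17 against 0 UMIs and 4 against 1 UMIs. Sox2 (chr3:34650405-34652461) lies inside the span of Sox2ot (chr3:34104270-34682619), both on the plus strand. How reads over both genes were counted is not given in the sources, so the low Sox2 count need not mean low expression. The list summed to 14958 CPM in the reprogrammed supporting cells and 12066 CPM in the reference. It summed to 12708 CPM in the cells the authors named Reprogrammed Hair Cells and 17764 CPM in control cluster 4. The list thus does not set the reprogrammed supporting cells apart, and the labels do not say what the authors' word supporting rests on.

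**Figure D1:**
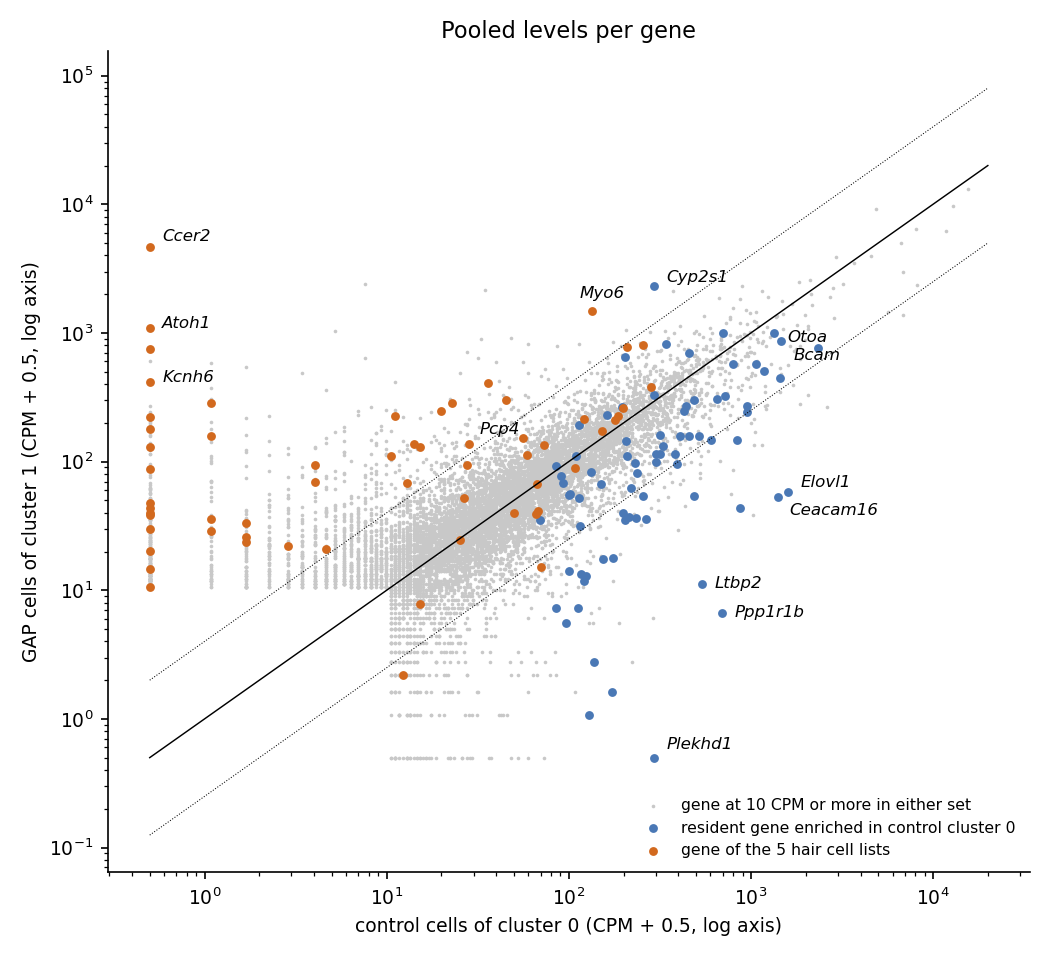
Level of each of 9980 genes in the 54 reprogrammed supporting cells (GAP cells of cluster 1, vertical) against the 80 reference cells (control cells of cluster 0, horizontal), as CPM of summed UMIs with 0.5 CPM added on log axes, with equality as a solid line and 4-fold differences as dotted lines. Ccer2 (4659 CPM) and Atoh1 (1097 CPM) stand at 0 CPM in the reference, and Ceacam16 and Elovl1 lie far below the lower dotted line.

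Resident genes were defined as those at 100 CPM or more in the reference with a UMI in at least 50% of its cells, which gave 2216 genes. Most stayed near their level. The ratio was between 0.5 and 2 (kept) for 1756 of them (79.2%), at least 2-fold but under 4-fold lower (lowered) for 257, at least 4-fold lower (lost) for 100 (4.51%) and at least 2-fold higher (raised) for 103. Of all 4178 genes at 50 CPM or more in the reference, 80.3% fell in the kept range and 4.14% in the lost range, so the residents' shares were near the background. The 100 lost genes together fell from 55018 to 8606 CPM, and the 103 raised genes went from 22353 to 63084 CPM. Only 1 resident gene, Plekhd1, had no UMI in the reprogrammed cells.

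A narrower set holds the genes that set the reference apart from the other wild-type cells. It has 76 enriched residents, at 50 CPM or more with a UMI in at least 50% of the reference cells and at least 2-fold above the pooled control cells of clusters 3, 4 and 6, within letter A and within letter B. Of these 76 genes, 23 were kept, 22 lowered, 28 lost and 3 raised. Their summed level was 33193 CPM in the reference and 16551 CPM in the reprogrammed supporting cells, against 6042 CPM in the 51 cells the authors named Reprogrammed Hair Cells and 11189 CPM in the 78 control cells of clusters 3, 4 and 6. Taken apart, those clusters had 6721, 8263 and 21516 CPM, so control cluster 6 held more than the reprogrammed supporting cells. Choosing genes for a high reference level can by itself lower the ratio, so the choice was repeated in 1 control letter, which is also less strict. With the genes chosen in letter A and compared with letter B, 17.6% were lost and 50.8% kept, and with the letters exchanged 19.6% and 54.4%, against 36.8% and 30.3% in the pooled choice. The limits between classes are not gaps. Kifc3, at a ratio of 0.244, lay just inside the lost class and Man2a2, at 0.256, just outside, while Rhpn1 (0.499) and Cops7b (0.509) lay on either side of the kept limit.

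The kept enriched residents included an abundant anchor of the tectorial membrane. Otoa encodes otoancorin, which attaches that membrane to nonsensory cells, and lies at chr7:121081650-121163097 on the plus strand of GRCm38. It stood at 895 and 1104 CPM for letters C and D against 1307 and 1365 CPM for A and B, a ratio of 0.737 (0.692 to 0.785). In single cells it ran from 0 to 3651 CPM with a median of 765 in the reprogrammed set and from 187 to 3619 with a median of 1229 in the reference. The ranges overlap over nearly their whole length. Control clusters 3 and 4 had less, at 75.4 and 257 CPM, and the level in control cluster 6 is not given here. Against cluster 4 Otoa was higher in the reprogrammed cells, by 1.94 on the log2 scale. Against all clustered control cells Otoa was higher by 0.38 on that scale. In the Reprogrammed Hair Cells it was at 69.2 CPM, 14.3-fold below the reprogrammed supporting cells (11.7 to 17.7). Otog, otogelin of the same membranes, went the same way as a gene outside the enriched set, at 697 against 1042 CPM, with 77.5 CPM in the Reprogrammed Hair Cells.

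Receptors and adhesion genes made up other members of the kept class. Bcam, a laminin-binding adhesion molecule, stood at 862 against 1458 CPM (ratio 0.591, 0.554 to 0.630), with 151 CPM in the Reprogrammed Hair Cells. Fgfr1, a fibroblast growth factor receptor, was at 1004 against 700 CPM (1.43, 1.33 to 1.54). Mctp1, which carries calcium-binding domains, was at 231 against 161 CPM, with 15.9 CPM in the Reprogrammed Hair Cells. Kif19a, a kinesin motor, stood at 694 against 455 CPM and the transcription factor Six2 at 144 against 204 CPM. Itih5, which binds hyaluronan, was the uneven one, at 724 and 405 CPM for letters C and D against 1017 and 1081 CPM for A and B. The remaining kept enriched genes among the 15 most abundant were Nrp2, Osbpl6, Nacc2, Smtnl2, Svil, Mpzl1, Dock8 and Cops7b, with levels from 110 to 576 CPM in the reprogrammed cells.

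The 3 raised enriched residents were Cyp2s1, Lmod1 and Myl9, named because they are few. Cyp2s1, an oxidising enzyme of the endoplasmic reticulum, stood at 2213 and 2401 CPM for letters C and D against 312 and 285 CPM for A and B, 7.82-fold higher (7.13 to 8.60). Per cell it ran from 61.9 to 6332 CPM around a median of 2162 in the reprogrammed set, against 0 to 1447 around 152 in the reference. The Reprogrammed Hair Cells had 312 CPM. Myl9, a regulatory myosin light chain of contractile cells, was at 815 against 343 CPM (2.38, 2.16 to 2.62), with 47.1 CPM in the Reprogrammed Hair Cells. Lmod1, an actin filament nucleator, was at 647 against 202 CPM (3.20, 2.84 to 3.62). So these 3 genes were highest in the reprogrammed supporting cells among the 3 sets.

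The most abundant enriched residents of the lost class were Elovl1 and Ceacam16. Ceacam16, a secreted component of the tectorial membrane (chr7:19852097-19861299, minus strand), stood at 1225 and 1511 CPM for letters A and B and at 29.5 and 79.8 CPM for C and D. This is a 26.7-fold lower level (21.8 to 33.2). Every one of the 80 reference cells had a UMI of it, with a range of 124 to 4196 CPM, but only 17 of 54 reprogrammed cells did, with a median of 0 and a highest value of 532 CPM. Ceacam16 and Otoa thus parted, and both were enriched in the reference. Ceacam16 encodes a component of the tectorial membrane and Otoa a protein that attaches it.

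Elovl1, which elongates very long fatty acids (chr4:118428093-118432953, plus strand), was at 58.04 against 1597 CPM, 27.5-fold lower (22.6 to 33.8). Degs2, which acts in ceramide synthesis, was at 53.5 against 487 CPM. Mylk, the kinase that activates myosin light chains, was at 43.4 against 870 CPM, 20.05-fold lower (15.9 to 25.5). Its substrate gene Myl9 was among the raised genes. Ltbp2, an extracellular matrix protein of microfibrils, was at 10.7 against 536 CPM (50.1-fold lower, 31.9 to 83.6). Ppp1r1b, a phosphatase inhibitor of dopamine signalling, was at 6.198 against 696 CPM, with a UMI in 5 of 54 against 71 of 80 cells, a 112-fold lower level (62.6 to 226). Plekhd1 (chr12:80692591-80724214, plus strand) had no UMI in the 54 cells and 294 CPM in the reference, at least 174-fold lower. The next enriched lost genes by abundance were Sytl2, Kifc3, Fndc7, Cdc42ep1, Amer2, P2ry1, Pank1 and Fxyd3, which all remained above the 3-count level at 34.4 to 147 CPM.

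The potassium channel genes Kcnj16 and Kcnj10 were lower, while 8 of 11 measured genes of gap junctions and potassium handling were within 2-fold. The anion exchanger gene Slc26a4, which is not on that list, was lower too. Kcnj16, a subunit of inwardly rectifying potassium channels (chr11:110968033-111027968, plus strand), stood at 2523 and 2639 CPM for letters A and B against 309 and 215 CPM for C and D, 9.80-fold lower (8.91 to 10.8). Per cell the reference ran from 419 to 5403 CPM with a median of 2717, and the reprogrammed set from 0 to 1523 with a median of 152. Its channel partner Kcnj10 was at 280 against 1025 CPM (3.66-fold lower, 3.31 to 4.05). Slc26a4, the anion exchanger pendrin, was at 168 against 1057 CPM, 6.30-fold lower (5.57 to 7.14). Against control cluster 4, where it stood at 135 CPM, it was instead slightly higher, by 0.31 on the log2 scale. The connexin genes Gjb2 and Gjb6 had ratios of 0.648 (0.605 to 0.694) and 0.763 (0.668 to 0.871). Against control cluster 4, where it stood at 2759 CPM, Gjb2 had a ratio of 0.286 (0.265 to 0.308). Of the 11 measured genes, which leave out Slc26a4, 0 were called higher and 3 lower, with Kcnj16 and Kcnj10 among the lower. The median log2 ratio was -0.39, and over the same 11 genes -1.81 against cluster 4 and -1.13 against the 15 GAP cells that the authors grouped with wild-type clusters. The list summed to 9093 CPM in the reference and 4641 CPM in the reprogrammed cells.

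Outside the enriched set the lost residents held cytoskeletal and signalling genes. Map1b, which binds microtubules, was at 1377 against 6801 CPM (4.94-fold lower, 4.73 to 5.16), and control cluster 4 stood at 1279 CPM. Sfrp1, a secreted Wnt antagonist, was at 348 against 1438 CPM. Nr1d1, a repressor of the circadian clock, was at 280 against 1849 CPM, and control cluster 3 stood at 336 CPM. The other most abundant lost residents were Tns1, Sept11, Gas2, Iqgap1, Lect1, Plekha6, Rora and Ttll3. Among the 15 lowest ratios of all genes were also Bdnf, a neurotrophin, at 1.13 against 108 CPM, and Lox, Lpl, Rgcc, Kbtbd11, Irs3, Anxa9, Gucy2f, Entpd8, Slc5a11, Aox4 and Spp1. Aox4 and Spp1 were uneven in the reference itself, at 8.90 and 1.78 CPM for letter A against 73.98 and 70.5 CPM for letter B.

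Abundant residents outside the enriched set were found in the kept, lowered and raised classes too. Actb, cytoplasmic actin, stood at 3989 against 4551 CPM. Cldn9, a tight junction protein of the organ of Corti, was at 1156 against 1800 CPM. Zbtb20, a transcription factor, was near the lower limit of the kept class at 6233 against 11802 CPM. Epyc, a small proteoglycan, was uneven, at 1431 and 810 CPM for letters C and D against 1889 and 2150 CPM for A and B. Sox10, a supporting cell and glial transcription factor, fell in the lowered class at 730 against 1728 CPM, 2.37-fold lower (2.22 to 2.53). Raised residents included Cryab, a small heat shock protein, at 1010 against 279 CPM (3.62, 3.27 to 4.02). The Reprogrammed Hair Cells had 231 CPM of Cryab.

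**Figure D2:**
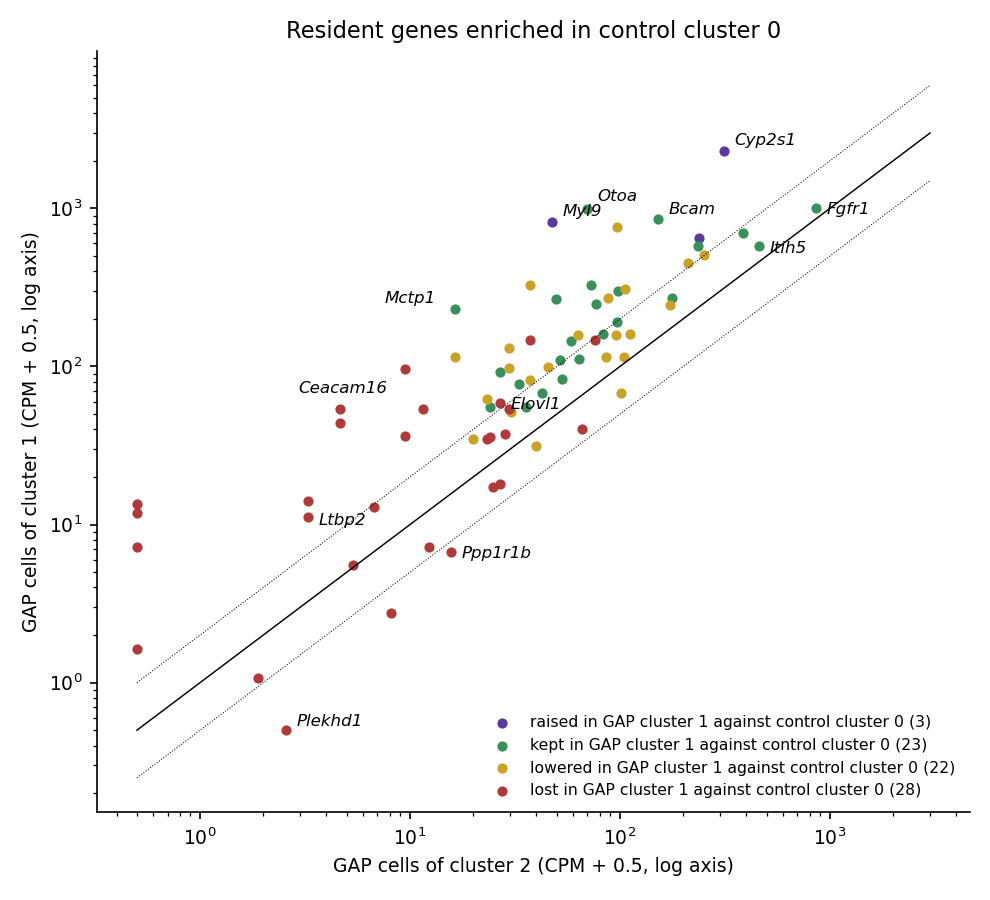
Level of each of the 76 enriched residents in the reprogrammed supporting cells (GAP cells of cluster 1, vertical) against the Reprogrammed Hair Cells (GAP cells of cluster 2, horizontal), as CPM with 0.5 CPM added on log axes, coloured by class, with equality as a solid line and 2-fold differences as dotted lines. Otoa (992 against 69.2 CPM), Bcam and Cyp2s1 lie above the upper dotted line, as do 42 of the 76 genes, and Plekhd1 is at 0 CPM in the reprogrammed supporting cells.

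The comparison with the Reprogrammed Hair Cells stays within the GAP genotype and within letters C and D. Of the 76 enriched residents, 42 were at least 2-fold higher in the reprogrammed supporting cells and 4 at least 2-fold lower, against 7.2% and 2.99% of the 4178 genes at 50 CPM or more in the reference. A higher level was seen for 66 genes in the pooled sets and for 56 in each of letters C and D. Set against the reference, the Reprogrammed Hair Cells had 52 of the 76 genes at least 4-fold lower and 7 in the kept range, where the background shares were 6.92% and 76.7%. These counts share their reference cells with the 28 and 23 of the reprogrammed supporting cells and are set beside them without a test. The same rule applied to the other control clusters gave 172, 211 and 111 enriched genes for clusters 3, 4 and 6. The reprogrammed supporting cells held 34.02%, 33.5% and 29.7% of those genes' summed levels, and 49.9% for the reference. By gene, the reference was instead near cluster 3. The lost shares were 36.05%, 39.3% and 43.2% for clusters 3, 4 and 6, and 36.8% for the reference. The kept shares were 31.4%, 25.6% and 18.9%, and 30.3% for the reference. The clusters differ in how many genes enter these values, and no difference between them was tested.

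Of the hair cell genes that could be compared, more were higher than lower in the reprogrammed cells. The 5 lists (fate regulators, bundle, mechanotransduction, synapse, calcium buffers and channels) had 57 measured members beside the 3 factors themselves, of which 39 were called higher and 2 lower. Their median log2 ratio was 3.24, or 2.99 with genes absent from 1 set placed at their bound, and over the letter pairings it ran from 2.22 to 3.25. Of the 86 genes on the lists, 39 had no UMI in the reference, so many were measured only through their level in the reprogrammed cells, and the counts and medians of these lists are descriptions. With no filter on low levels the median was 2.26. Over all genes compared, 18.4% were called higher. Their summed levels, with the 3 factors, were 2675 CPM in the reference, 16060 CPM in the reprogrammed supporting cells and 14610 CPM in the Reprogrammed Hair Cells.

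Ccer2, which encodes a coiled-coil glutamate-rich protein, alone made up much of that sum and had the highest ratio among genes that met the naming rule. It stood at 3687 CPM for letter C and 5772 CPM for letter D, with no UMI in the reference, at least 2635-fold higher. All 54 cells had it, from 80.4 to 12496 CPM with a median of 3611. The Reprogrammed Hair Cells had 1048 CPM, 4.45-fold less (4.21 to 4.70). Its gene lies at chr7:28756174-28758968 on the plus strand of GRCm38. The 250 bases before its start (chr7:28755924-28756173, RefSeq annotation of GRCm38.p6) are shown because Atoh1 binds E-boxes and this is the gene with the highest ratio. They hold 1 copy of the E-box CAGCTG, in capitals, starting 142 bases before the gene start.
Ccer2: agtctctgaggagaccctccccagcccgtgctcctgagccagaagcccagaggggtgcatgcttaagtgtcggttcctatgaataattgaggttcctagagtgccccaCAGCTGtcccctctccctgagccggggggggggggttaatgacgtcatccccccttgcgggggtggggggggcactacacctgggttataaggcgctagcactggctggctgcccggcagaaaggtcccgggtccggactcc
Read on both strands (CAGCTG is its own complement), this motif was in 13% of 32851 promoter windows of this length. Counted by gene, with a match in any window of the gene, it was in 13.9% of genes at 10 CPM or more. The share was 18.5% of genes at least 4-fold higher and 20.4% of those at least 4-fold lower. The match is a description of the letters.

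The 15 highest ratios also included Mdk, which is on none of the hair cell lists, and Kcnh6 and Ptprq, which are. Mdk, the growth factor midkine, stood at 2436 and 2320 CPM for letters C and D against 1.78 and 9.69 CPM for A and B, a ratio of 337 (193 to 652). Kcnh6, a voltage-gated potassium channel, was at 418 CPM against no UMI, at least 236-fold higher, and 8.04-fold above the Reprogrammed Hair Cells (6.34 to 10.3). Ptprq, a phosphatase of the stereocilia base, was at 221 CPM against no UMI, but the Reprogrammed Hair Cells had 598 CPM. The other members were Heg1, Miat, Rasd2, Lrrn1, Ephb1, Runx1t1, Tnfaip2, Dlk2 and Nos1, at 192 to 603 CPM with 0 to 2 UMIs in the reference. All 15 were detected in at least 31 of the 54 cells.

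**Figure D3:**
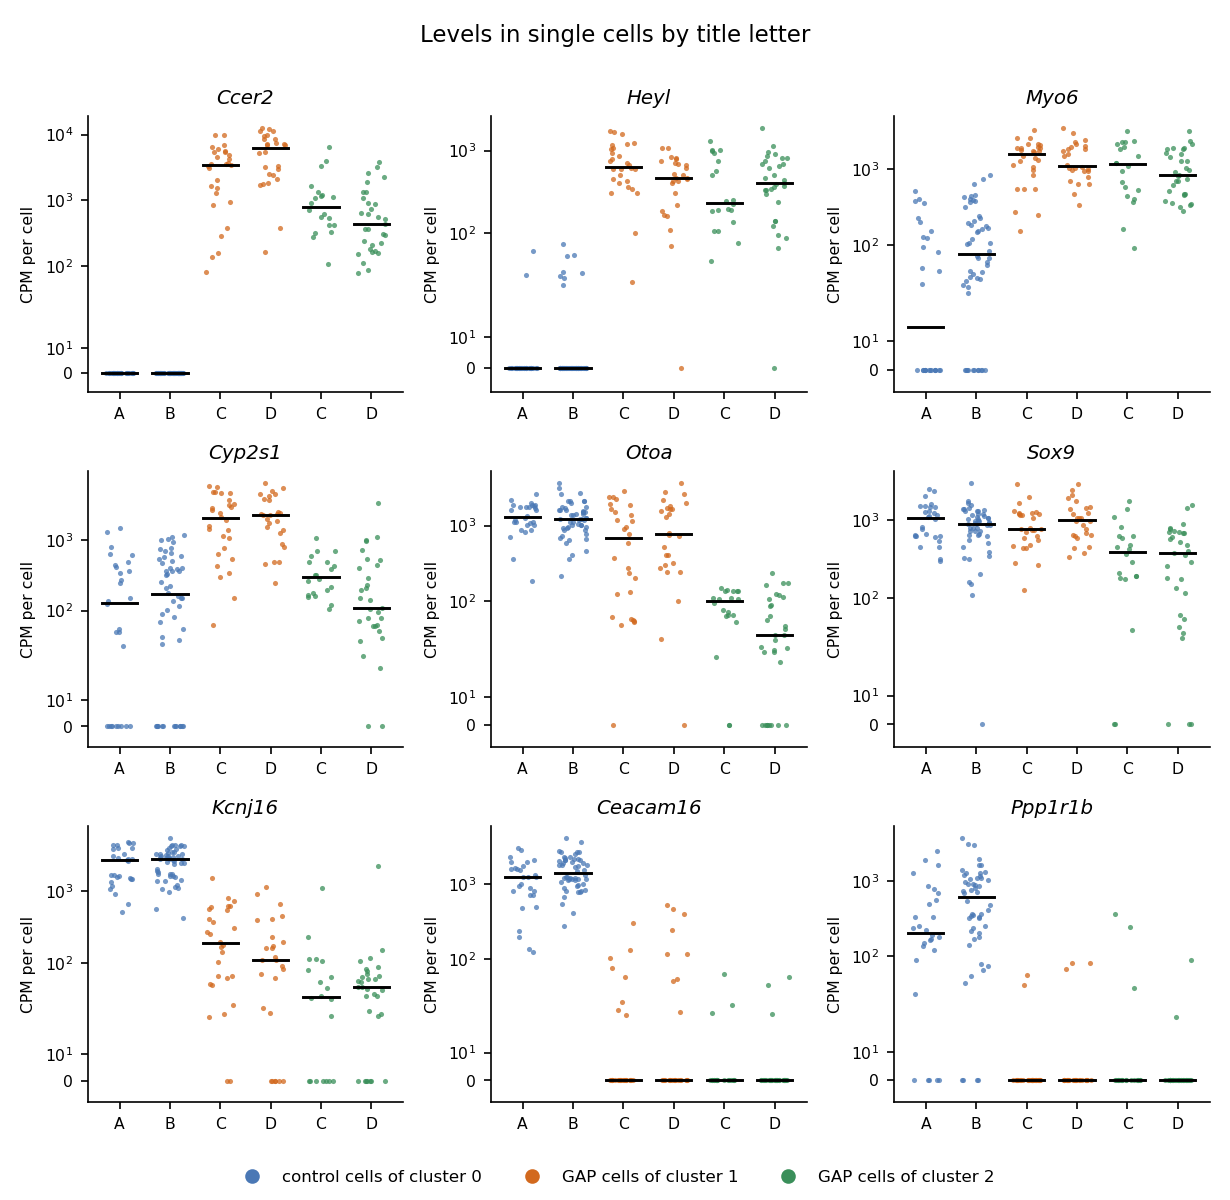
CPM of 9 genes in single cells by letter, each point 1 cell and each bar a median, for the reference (blue), the reprogrammed supporting cells (orange) and the Reprogrammed Hair Cells (green), on an axis linear near 0 and logarithmic above. Ccer2 is at 0 CPM in all 80 reference cells, Otoa and Sox9 overlap between the reference and the reprogrammed supporting cells, and only 17 of 54 reprogrammed supporting cells have a UMI of Ceacam16.

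Among fate regulators, 7 genes besides the 3 factors were measured, of which 6 were called higher and 0 lower. Their median log2 ratio was 4.28, or 2.34 with no filter on low levels and 2.31 with a pseudocount of 10 CPM. Of the 18 genes on the list, 13 had no UMI in the reference. Mfng, a modifier of Notch, stood at 180 CPM against no UMI, at least 102-fold higher, and the Notch ligand gene Jag2 at 225 against 10.6 CPM (21.2, 13.2 to 36.1). Rbm24, a splicing regulator of hair cells, was at 43.4 CPM against no UMI, with 178 CPM in the Reprogrammed Hair Cells.

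Of 19 measured bundle genes, 11 were called higher and 0 lower (median log2 1.74). Myo6, the motor at the base of the bundle (chr9:80165031-80311729, plus strand), stood at 1472 and 1491 CPM for letters C and D against 92.6 and 155 CPM for A and B, 11.02-fold higher (9.62 to 12.7). Its range per cell was 155 to 3414 CPM around 1415, against 0 to 826 around 63.6, so the ranges overlap at their ends. Myo7a, the motor tied to the upper tip link, was at 128 against 14.7 CPM and at 452 CPM in the Reprogrammed Hair Cells. Ankrd24 and Triobp, which build the stereocilia rootlet, were at 408 against 35.4 CPM and at 802 against 255 CPM. Whrn, a scaffold of stereocilia growth, was at 157 CPM against 1 UMI.

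Of 11 measured mechanotransduction and bundle link genes, 8 were called higher and 0 lower. The median log2 ratio was 3.59, with 2.25 to 4.22 over the letter pairings, 2.82 without letter C, 2.74 with no filter on low levels and 1.93 with a pseudocount of 10 CPM. Cib2, an auxiliary protein of the transduction channel, stood at 245 against 19.4 CPM (12.6, 8.84 to 18.5). The channel gene Tmc1 was at 21.4 against 2.36 CPM, and its partner Lhfpl5 at 4.51 CPM with 92.8 CPM in the Reprogrammed Hair Cells.

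Of 8 measured ribbon synapse genes, 4 were called higher and 2 lower (median log2 1.01), and Ccer2, placed in this list, is 1 of the 4. It was the only list of these 5 with lower calls. Otof, the calcium sensor of the inner hair cell synapse, was at 86.8 CPM in 24 of 54 cells, with no UMI in the reference and 266 CPM in the Reprogrammed Hair Cells. Pclo, an active zone scaffold, was at 303 against 44.8 CPM. Rims2, which acts in vesicle release, was among the lower genes, at 1.69 against 11.8 CPM. Of 12 measured calcium buffers and channels, 10 were called higher and 0 lower (median log2 3.53, or 1.76 with a pseudocount of 10 CPM), with Anxa4 at 287 against 22.4 CPM, S100a13 at 780 against 207 CPM and Pcp4 at 136 against 27.7 CPM.

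Markers of the hair cell subtypes were measured for 5 of 8 inner and 4 of 9 outer hair cell genes. Of these, 4 inner and 3 outer hair cell genes were called higher, with median log2 ratios of 1.94 and 1.88. Over all genes compared, 18.4% were called higher. On the full lists, 4 of 8 inner and 6 of 9 outer genes had no UMI in the reference. Such genes can be measured only through the reprogrammed cells, so these counts and medians are descriptions. The inner list summed to 549 against 440 CPM and the outer list to 146 against 67.8 CPM. Other cells had more of the outer list than the reprogrammed cells. It summed to 190 CPM in control cluster 4 and 168 CPM in the pooled control cells of clusters 3, 4 and 6. In the GAP cells grouped with wild-type clusters it summed to 169 CPM. The inner list was lower in these sets than in the reprogrammed cells, at 451, 421 and 376 CPM. Among inner hair cell genes Brip1 was at 118 against 30.1 CPM and Cabp2, a calcium-binding protein of the synapse, at 30.4 CPM against 1 UMI. Slc17a8, the glutamate transporter of inner hair cells, had 1 UMI in the 54 cells and 29.8 CPM in the Reprogrammed Hair Cells, and fell below the 10 CPM filter in both sets compared. Xirp2, an actin-binding protein counted with the hair bundle list, stood at 1.13 and 41.5 CPM.

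Against the Reprogrammed Hair Cells, the hair cell genes of the reprogrammed supporting cells were mostly the lower. Of 69 genes of the 5 lists at 10 CPM or more in either set, 32 were at least 2-fold higher in the Reprogrammed Hair Cells and 6 at least 2-fold higher in the reprogrammed supporting cells, with a median log2 difference of 0.91. Over all 10263 genes compared the shares were 11.6% and 8.97%, with a median of 0.05. The summed levels of the lists did not follow this order, and Ccer2 alone held 4659 of the 16060 CPM in the reprogrammed supporting cells.

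**Figure D4:**
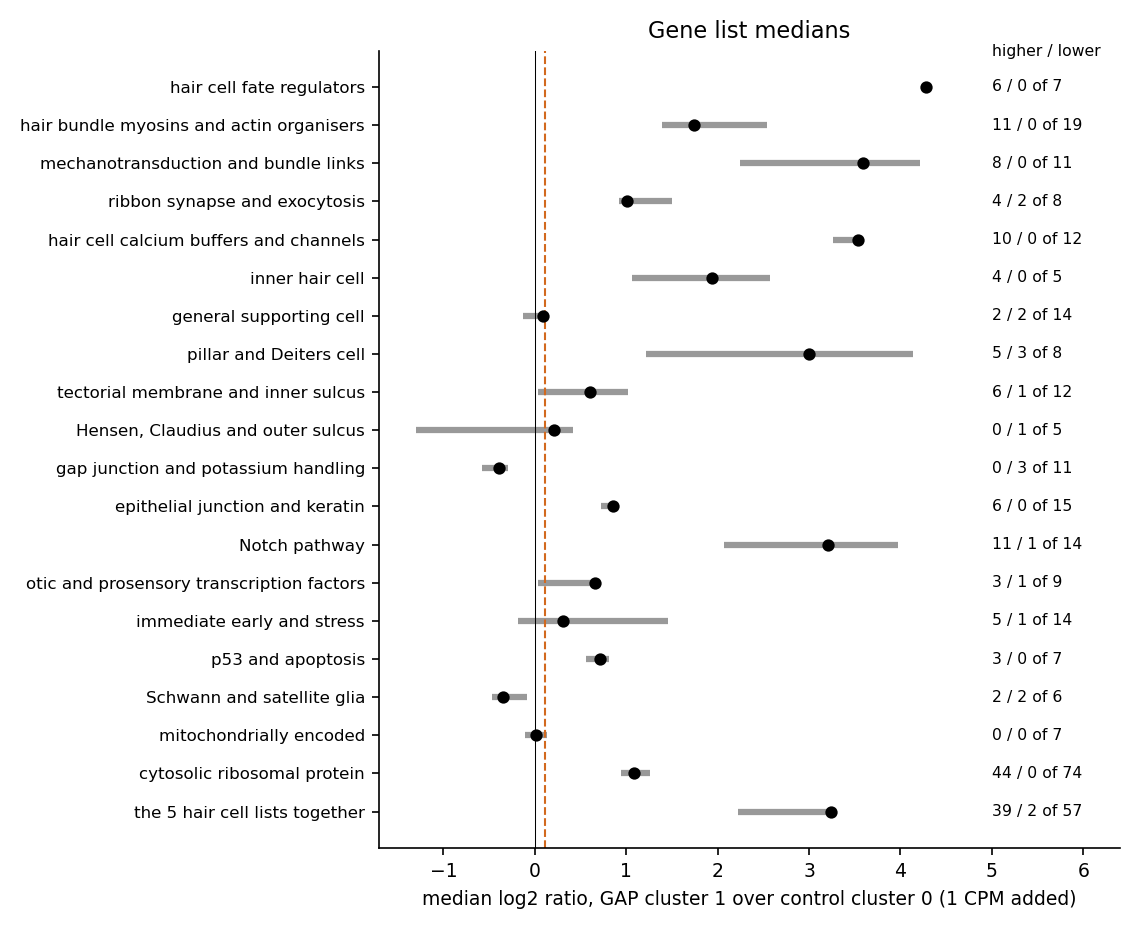
Median log2 ratio of each gene list (point) in the reprogrammed supporting cells over the reference, with the range over the 4 letter pairings (grey bar), the median of all genes (dashed line, 0.11) and the numbers called higher and lower of those measured. The 5 hair cell lists together stand at 3.24 with 39 of 57 genes higher, and the gap junction and potassium list at -0.39 with 3 of 11 lower.

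Most measured Notch pathway genes were higher. Of 14 measured, 11 were called higher and 1 lower, against 18.4% and 11.9% of all genes compared. The median log2 ratio was 3.20 (2.07 to 3.97 over the letter pairings, 3.01 with no filter on low levels), and the summed level was 2821 CPM against 598 CPM. Of the 18 genes on the list, 7 had no UMI in the reference. Some were thus measured only through the reprogrammed cells, and these values are descriptions. Jag2, Dll1, Dll3 and Mfng are also on the fate regulator list. Among ligands, Jag1 stood at 272 and 277 CPM for letters C and D against 48.1 and 18.5 CPM for A and B (9.70, 7.20 to 13.3), beside Jag2 above. Among receptors, Notch1 was at 648 against 239 CPM (2.71, 2.42 to 3.04). Lfng, which modifies the receptor, was at 153 against 4.12 CPM (37.2, 17.8 to 93.3) and at 6.92 CPM in the Reprogrammed Hair Cells.

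Of the targets, Heyl (chr4:123233556-123249875, plus strand) stood at 742 and 525 CPM for letters C and D against 5.34 and 7.93 CPM for A and B, 90.6-fold higher (51.7 to 176). Per cell it ran from 0 to 1752 CPM with a median of 594, against 0 to 73.1 with a median of 0, and 53 of 54 against 10 of 80 cells had a UMI. Hey1 was at 196 against 26.5 CPM (7.37, 5.39 to 10.3). Hes1, Hes5, Hey2, Notch3, Rfng and Numb were looked up after the values were seen or for another list. Hes1 was at 110 against 20.6 CPM (5.33, 3.70 to 7.87). Hes5 was at 41.1 CPM with no UMI in the reference, from 11 of 54 cells, and Hey2 at 68.6 and 7.26 CPM for letters C and D from 9 cells. These last values rest on few cells. Notch3 was at 31.7 and 3.63 CPM for letters C and D with no UMI in the reference, Rfng was at 4.51 against 22.4 CPM, which rested on letter B (31.7 CPM, with 3.56 CPM for A), and Numb, an inhibitor of the receptor, was at 31.0 against 51.9 CPM.

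The promoter windows of Hes5 and Lfng, genes of the pathway, are shown because the pathway's DNA-binding factor Rbpj recognises TGGGAA, read here on both strands (TTCCCA on the other), in capitals. In Hes5 (chr4:154960673-154960922, plus strand) the copies start 82 and 226 bases before the gene start, and in Lfng (chr5:140607091-140607340, plus strand) 108 and 135 bases. Each of these 2 windows holds a copy in each orientation. The Hey2 window held 1 copy, starting 207 bases before the start, and the Jag1 window held none.
Hes5: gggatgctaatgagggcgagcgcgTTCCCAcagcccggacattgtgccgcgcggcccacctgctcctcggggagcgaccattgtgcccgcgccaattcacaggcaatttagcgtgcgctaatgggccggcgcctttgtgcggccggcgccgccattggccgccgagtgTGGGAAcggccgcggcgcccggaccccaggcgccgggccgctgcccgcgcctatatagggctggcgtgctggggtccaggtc
Lfng: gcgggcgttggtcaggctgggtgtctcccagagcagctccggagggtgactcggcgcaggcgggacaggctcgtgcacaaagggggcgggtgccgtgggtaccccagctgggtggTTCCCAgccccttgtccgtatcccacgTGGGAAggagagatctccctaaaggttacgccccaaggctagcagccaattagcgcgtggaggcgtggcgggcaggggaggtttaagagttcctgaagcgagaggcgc
The motif was in 21.6% of the 32851 windows. Counted by gene, with a match in any window of the gene, it was in 23.8% of genes at 10 CPM or more. The share was 27.3% of those at least 4-fold higher and 23.5% of those at least 4-fold lower.

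The choice of wild-type cells changes the Notch values. Control cluster 4, which holds 29 cells and markers such as Slitrk6 (1051 CPM against 10.6 CPM in the reference and 414 CPM in the reprogrammed cells), summed to 1310 CPM over the Notch list. Against it the median log2 ratio was 1.33, and Jag1, at 477 CPM there, was lower in the reprogrammed cells by 0.80 on the log2 scale. Of 8 measured pillar and Deiters cell genes, 5 were called higher and 3 lower against the reference. They included Lgr5, a Wnt co-receptor, at 317 CPM against 112 and 10.6 CPM for letters A and B. The part of this cell type in the Notch difference was not tested.

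Cells of the GAP genotype that the authors grouped with wild-type cells give a reference from the same letters C and D, although their genotype is the same and they carry UMIs of the factors. These 15 cells of clusters 0, 3, 4 and 6 had 93.2 CPM of Atoh1, 245 CPM of Ccer2 and 387 CPM of Heyl, and their Notch list summed to 1648 CPM. Against them the median log2 ratio was 0.76 for the Notch list and 1.91 for the 5 hair cell lists, 55.4% of the enriched residents were kept and 21.6% lost. Both medians were smaller than the 3.20 and 3.24 found against the control cells of cluster 0.

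Only 4 GAP cells were in cluster 0 itself, too few for a comparison, and their values are listed from lowest to highest. Kcnj16 was at 2723, 3094, 3614 and 4027 CPM, and Otoa at 533, 950, 1566 and 1671 CPM. These values lie in the range of the reference. Ceacam16 was at 341, 361, 385 and 761 CPM, and Ppp1r1b at 0, 0, 24.4 and 29.6 CPM. For Ppp1r1b every value lies under the reference median of 360 CPM. Heyl was at 148, 407, 585 and 1208 CPM, all above the highest reference cell.

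Hair cell genes and enriched residents were detected in the same cells. To compare cells of unequal depth, each was thinned to 8000 UMIs, which dropped 0 cells of either set. Of 83 hair cell genes (the 5 lists without the 3 factors), a reprogrammed supporting cell held a UMI of 12 to 36 with a median of 22.5, and a reference cell 5 to 16 with a median of 9. A Reprogrammed Hair Cell held 11 to 54 with a median of 21, so the median number detected was not lower in the reprogrammed supporting cells. Of the 54 cells, 48 (88.9%, 77.4% to 95.8%) lay above every reference cell. Of the 76 enriched residents, the reprogrammed cells held 19 to 49 with a median of 31, the reference 32 to 61 with a median of 52, and the Reprogrammed Hair Cells 12 to 29 with a median of 20. The control cells of clusters 3, 4 and 6 held 18 to 52 with a median of 28, and the 15 GAP cells grouped with wild-type clusters 17 to 55 with a median of 28. The reprogrammed cells were thus near these other cells in the number of enriched residents detected. Within the reference range lay 24 of the 54 cells (44.4%, 30.9% to 58.6%) and 0 of the 51 Reprogrammed Hair Cells (exact upper limit 6.98%). Both conditions were met by 21 of 54 cells (38.9%). Some control cells of clusters 3, 4 and 6 and some of the 15 GAP cells also lay in the reference range of residents, since their highest counts were 52 and 55. A place in that range is therefore not particular to the reprogrammed supporting cells. The resident counts are a description, since the genes were chosen for being detected in the reference. Without thinning, 96.3% lay above every reference cell and 79.6% within the resident range.

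A UMI of each of Otoa, Ccer2, Atoh1, Myo6 and Sox9 was found in 51 of 54 reprogrammed supporting cells (94.4%), 39 of 51 Reprogrammed Hair Cells (76.5%). The reference cells had no UMI of Atoh1 or Ccer2, so none could hold all 5. The genes were chosen with their levels known, and depth was not equalised for these shares. Across the 54 cells, the numbers of hair cell genes and of resident genes had a Pearson r of -0.25, with 0.08 in letter C and -0.43 in letter D, while their summed thinned CPM had an r of 0.41. The measures differ in sign and share library and depth, so no order between the programmes is read from them. Summed CPM of the 3 factors had an r of -0.07 with resident CPM and 0.25 with hair cell CPM.

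No doublet caller was run, since cells were sorted singly. The reprogrammed cells had a median of 34992 UMIs and 5270 genes per cell against 19822 and 3564 in the reference, with maxima of 42818 and 41653 UMIs, and 17 of 54 reprogrammed cells had a UMI of Ceacam16, which was found in every reference cell. The part of wells with more than 1 cell in the joint detection was not tested.

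**Figure D5:**
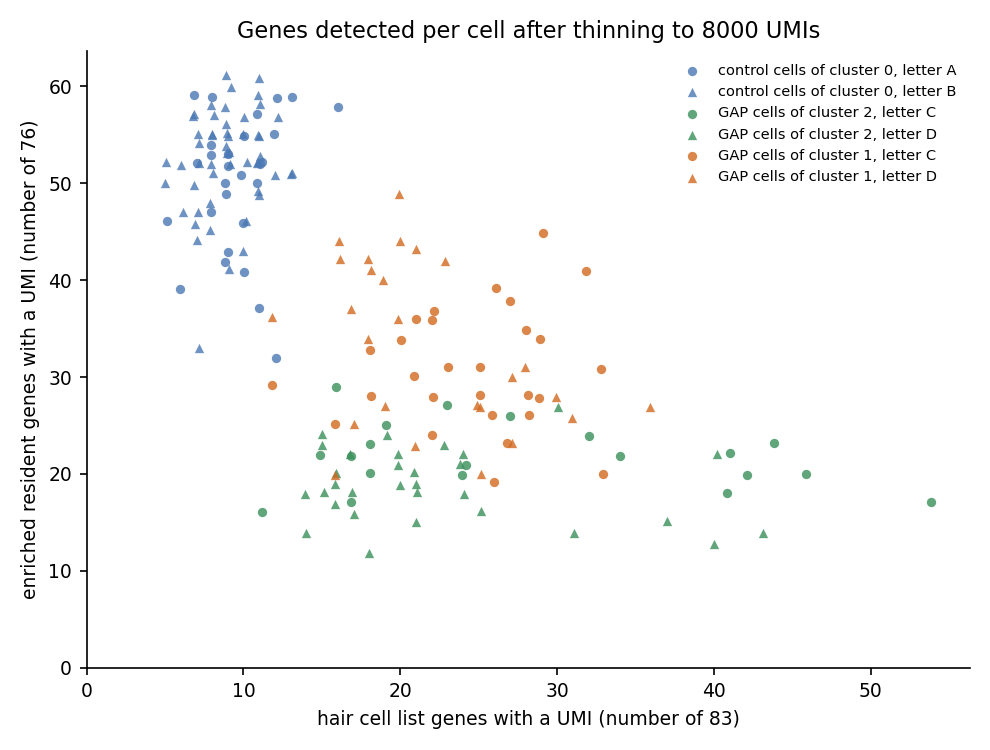
Number of hair cell genes (of 83, horizontal) and of enriched residents (of 76, vertical) with a UMI in each cell after thinning to 8000 UMIs, by cell set. In resident counts the reprogrammed supporting cells lie between the reference, at high counts, and the Reprogrammed Hair Cells, at low ones. In hair cell gene counts they overlap the Reprogrammed Hair Cells.

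Markers of other cell types differed in level between the lists. Neuron, leukocyte and erythroid lists had 0 members measured, with sums of 0 to 2.95 CPM in the reference and 3.38 to 19.7 CPM in the reprogrammed cells. The fibroblast list summed to 161 CPM in the reference and 54.7 CPM in the reprogrammed cells, and the glial list, which contains Sox10, to 2325 and 1135 CPM. The pericyte gene Rgs5 was at 203 CPM in 19 of 54 reprogrammed cells with no UMI in the reference, and its list summed to 213 against 2.36 CPM. Immediate early and stress genes summed to 4183 and 6143 CPM for letters A and B and to 10529 and 6815 CPM for C and D, with 5 of 14 called higher and 1 lower. The part of these lists in the differences between the sets was not tested.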

How the data were processed

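Single cochlear cells of 2 genotypes were profiled, 360 in all, each cell being 1 deposited library. The authors deposited raw exonic UMI counts for 48440 gene rows. The submitters' processing notes name STAR, HTSeq and mm10, while software versions, the annotation, UMI collapsing and strandedness are not given in the sources. Reads of overlapping or antisense genes can therefore not be told apart. The authors' deposited cluster numbers and names were used as given, and cells without a cluster entered no comparison. No filter on cells was added and no doublet caller was run.

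Counts were summed per set and divided by the set's total (CPM). Genes at 10 CPM or more in either set were compared, log2 ratios had 1 CPM added, and 232 symbols shared by rows were left out of gene lists. Ratios have exact conditional binomial intervals, levels exact Poisson and shares exact Clopper-Pearson intervals, at 95%, checked on simulated counts. Cells were thinned to 8000 UMIs with seed 1. With 1 sample per genotype no test was possible. Alternatives changed scaling (TMM of edgeR 4.0.16), filter, pseudocount, depth, reference cells and letters. Coordinates come from GENCODE vM21 (GRCm38) and promoter windows from RefSeq (GRCm38.p6). Named genes are the 3 factors, Fbxo2 and Epcam, the 15 highest and 15 lowest ratios at 20 CPM or more with a UMI in 25% of cells, no cell over 20% of the UMIs and 1 direction in all 4 letter pairings, the 15 most abundant kept and lost (enriched) residents, and the most abundant of each list. Some genes that this rule selects are not reported here. The members and gene lists were chosen with earlier results of these data known. Python 3.11.15, numpy 2.4.6, scipy 1.17.1, pandas 2.3.3, matplotlib 3.10.9 and R 4.3.3 were used.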

Additional observations from a re-analysis of the deposited data

Results flagged for a closer look

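The driver and the gene with the highest ratio were also abundant in GAP cells that the comparisons did not use. The 17 GAP cells without a cluster had 1109 CPM of Atoh1 (1040 to 1182) and 3267 CPM of Ccer2 (3148 to 3390), each in 17 of 17 cells, while the reference cells had no UMI of either. In the same cells Otoa was at 543 CPM, Ceacam16 at 25.4 CPM and Kcnj16 at 604 CPM, with Ceacam16 found in 3 cells.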

How the results depend on the processing

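Of 167 recomputed values of the main results, 125 stayed within a limit set for each kind of value, and 42 moved. For list medians the limit was the spread over the letter pairings. For percentages it was the exact interval of the main share, and for counts a factor of 1.5. Single genes kept their direction in 267 of 272 recomputed values. Reversals occurred against control cluster 4, a reference added after seeing the data, for Jag1 (-0.80) and Slc26a4 (0.31). Otoa, within 2-fold of the reference, changed sign against 3 other references. Why values moved was not tested, apart from settings that compare fewer genes or cells by construction. Calls higher and lower numbered 756 and 583 with a filter of 50 CPM, 3720 and 2156 with no filter, and 752 lower with a pseudocount of 10 CPM. Against control cluster 4 they were 1823 lower. The median of the 5 hair cell lists was 2.31 at 50 CPM, 2.26 with no filter, 1.80 with the larger pseudocount, 1.91 against the 15 GAP cells, 2.77 against all clustered control cells and 3.80 against cluster 4. Leaving out 1 letter gave 2.81 to 3.25. The Notch median was 2.16 with the larger pseudocount, and 0.76, 2.10 and 1.33 against those 3 references. The general supporting cell median, near 0, was 0.0031 with TMM, 0.26 after thinning, 0.33 at 50 CPM and with no filter, and 0.18, -0.23 and -0.32 against those references.

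Residents kept were 81.002% with the larger pseudocount, 81.03% against the GAP cells, 82.9% against all clustered control cells and 74.4% with a level of 200 CPM, and residents lost 2.53%, 3.47% and 6.34% under the last 3. Enriched residents kept and lost were 55.4% and 21.6% against the GAP cells and 43.4% and 25% against all clustered control cells. With genes chosen in 1 control letter and compared with the other they were 50.8% and 17.6%, and 54.4% and 19.6%. Unthinned, 96.3% of cells lay above every reference cell and 79.6% in the resident range. Leaving out 1 letter gave 84.6% to 96.3% for the former. TMM moved the median of all genes from 0.11 to 0.01 and the higher share of calls from 60.8% to 55.2%. The 4 GAP cells of cluster 0 were not run as a reference. No paired analysis was possible because no replicate number is shared between genotypes.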

Other observations

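Genes of translation were higher together in the reprogrammed supporting cells. Of 74 measured cytosolic ribosomal protein genes, 44 were at least 2-fold higher and 0 lower, against 18.4% and 11.9% of all genes, with a median log2 ratio of 1.09 and 0.94 to 1.26 over the letter pairings. They summed to 14615 and 13917 CPM for letters A and B of the reference and to 28503 and 33136 CPM for letters C and D. The Reprogrammed Hair Cells had 27001 CPM, and the 15 GAP cells grouped with wild-type clusters, from the same letters, 15122 CPM. Translation factors outside the list were looked up after their values were seen. Eef1a1 was at 2306 against 894 CPM, Eef2 at 1834 against 872 CPM and Eif4b at 570 against 266 CPM. Mitochondrially encoded genes did not go with them, with 0 of 7 measured genes called in either direction and a median of 0.01, and 5 of the 13 are listed at 0 in all 360 cells.

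Genes of the circadian clock, also looked up after Nr1d1 was seen among the lost residents, split. Nr1d1 was at 320 and 235 CPM for letters C and D against 1834 and 1856 CPM for A and B. Lower with it were the repressor Bhlhe41 at 10.1 against 120 CPM, the output regulator Dbp at 12.4 against 61.3 CPM, Cry2 at 65.4 against 199 CPM and Npas2 at 32.1 against 104 CPM. Within 2-fold were Per1 at 221 against 187 CPM, Per2 at 69.9 against 47.1 CPM, Arntl at 76.1 against 85.4 CPM and Clock at 155 against 127 CPM. Nr1d1 was at 489 CPM in the 15 GAP cells grouped with wild-type clusters, and the 4 GAP cells of cluster 0 had 181, 403, 474 and 828 CPM. The hour of harvest is not among the labels, and genotype and letter cannot be told apart.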
